A study of Mus musculus with 2 samples.

Results

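The levels of 10 mouse miRNAs were followed on 2 miRNA arrays of the embryonic tongue primordium. They were mmu-miR-1949, mmu-miR-702, mmu-miR-3096b-3p, mmu-miR-715, mmu-miR-574-5p, mmu-miR-1937c, mmu-miR-466i-5p, mmu-miR-3085-3p, mmu-miR-3072* and mmu-miR-3092, written without the species prefix in most places below. These are 10 of the 1080 miRNAs on the array, and they were picked by name because earlier results of these data placed them lower at the later stage. Their values between the stages therefore describe the choice and are given with no test. Total RNA came from the medial mandibular arch of ICR mouse embryos, and the labels name no treatment or engineered allele. RNA of 40 embryos at E10.5 made 1 pool and RNA of 40 embryos at E11.5 made the other. Each pool was hybridised to 1 array, so there are no replicates, and each error below is the SD or the standard error (SE) among copies of a probe within 1 array. The spread between embryos or between arrays is therefore unknown. The study profiled miRNAs across the interval in which myoblasts of this tissue begin to differentiate.

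A miRNA is a short RNA cut from a hairpin precursor, and it guides Argonaute proteins to messenger RNAs mainly through its seed, bases 2 to 8. Many hairpins are conserved among vertebrates, while others were found only in rodents, lie in simple repeats, or overlap other kinds of noncoding RNA. The miR-466 family belongs to the rodent repeat-rich kind, with alternating U and G in the 5′ arm. miR-702 has been described as a mirtron, a hairpin released by splicing of an intron.

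The arrays read the 3′ part of each miRNA through a short complementary probe, and the sequences are shown because the 2 kinds of member described below differ in them. RefSeq (build GRCm38.p6) matched 5 members. Their mature sequences follow, with the seed in capitals.

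miR-574-5p: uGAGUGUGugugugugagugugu

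miR-3072* (miR-3072-5p): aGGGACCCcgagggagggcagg

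miR-702 (miR-702-3p): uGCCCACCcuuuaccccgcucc

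miR-3085-3p: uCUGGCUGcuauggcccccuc

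miR-3092 (miR-3092-3p): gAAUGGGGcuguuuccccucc

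No seed was shared among these 5. In the RefSeq table, miR-3064-5p has the seed of miR-3085-3p, and no other miRNA has the seed of any of the other 4. The array's longest probe follows for members whose probe bears on the results below, 5′ to 3′, and it reads as the reverse complement of the 3′ part of the miRNA. Capitals mark a run of at least 4 guanines or at least 4 alternating CA units.

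miR-466i-5p probe: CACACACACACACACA

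miR-574-5p probe: acacactCACACACACAC

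miR-3096b-3p probe: tggcctcaggtaaatcc

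miR-1937c probe: tGGGGGctcttccg

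miR-715 probe: cacgcGGGGGtgt

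miR-702 probe: gagcGGGGtaaagggtg

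miR-3085-3p probe: gaGGGGGccatagc

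miR-3092 probe: ggaGGGGaaacagc

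The first 2 of these probes are simple repeats, and the last 5 each hold a guanine run. By position in the array annotation (mm9), the longest probe of miR-574-5p maps to chr5:65361573-65361589 on the plus strand. In the GRCm38.p6 gene table its gene lies within the spans of Fam114a1 and Tlr6. The probe of miR-466i-5p maps to overlapping sites 2 bases apart on the plus strand, chr13:17839361-17839376 and chr13:17839363-17839378, and its gene lies within Cdk13, a transcription-associated kinase. That of miR-3096b-3p maps to chromosome 5 at chr5:23358082-23358098 (plus) and chr5:23216863-23216879 (minus). miR-3072* maps to chr12:110986113-110986124 (plus), and its gene lies within Mirg, a noncoding RNA of the imprinted Dlk1-Dio3 region. miR-702 maps to chr5:137467395-137467410 (plus) within Plod3, which encodes a collagen lysyl hydroxylase. miR-3085-3p maps to chr19:42354635-42354647 (minus) within Gm34347, and miR-3092 to chr3:27483890-27483902 (minus) within Fndc3b. miR-715 maps to chr17:39981104-39981115 (plus) and miR-1937c to chr3:23467152-23467164 (minus). The gene table holds no gene named for miR-715, miR-1937c or miR-3096b. The gene of miR-1949 lies within Snhg4, a host gene of small nucleolar RNAs. Whether these positions are exonic or intronic was not examined. Sites of the repeat probes of miR-466i-5p and miR-574-5p beyond those in the annotation were not searched.

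Over the whole array, the E10.5 pool gave 144 detected miRNAs and the E11.5 pool 199. Detection of a probe required the well-above-background flag of the files in 50% or more of its spots, and detection of a miRNA required 1 such probe. The dimmest detected probes lay at 30.9 and 29.5 intensity units, and negative control spots averaged 7.87 ± 6.16 and 5.88 ± 5.60 (SD, 1000 spots each). The E11.5 array was brighter, with a median unscaled ratio of 2.37-fold over the 137 miRNAs detected at both stages. Dividing each array by its 75th percentile over shared probes took 1.31 off every log2 difference, and a scaled difference is thus a difference relative to the other detected miRNAs. In pooled tissue, fewer cells that make a miRNA and less of it per cell cannot be told apart. All 3 mesenchymal and all 3 epithelial marker miRNAs were detected at both stages and neither of the 2 neural ones at either stage, while the 4 skeletal muscle ones were detected at E11.5 only and the 2 blood ones numbered 1 at E10.5 and 2 at E11.5. Scaled log2 differences, E11.5 minus E10.5, ran from -1.59 to -0.85 for the epithelial markers and from 0.07 to 0.28 for the mesenchymal ones. The part of these shifts in the values below was not tested.

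The members were of 2 kinds. The 5 measured at both stages, miR-466i-5p, miR-574-5p, miR-3072*, miR-1949 and miR-3096b-3p, had nearly the same unscaled intensity on both arrays, while the typical miRNA was more than 2-fold brighter at E11.5. The other 5 were detected at E10.5 only, and 4 of these, miR-702, miR-715, miR-3085-3p and miR-3092, were dimmer at E11.5 before any scaling. miR-1937c, the other one, was close to level and lay on the detection limit. By the detected probes, unscaled intensity at E11.5 was 87.5% to 99.9% of that at E10.5 for the 5 measured members. For the other 5 no probe was detected at E11.5, so that their size of difference is given below as a bound. The call of detection at E10.5 only depends on the rule for 2 of them. By the gene detection flag of the files miR-702 and miR-1937c were detected at both stages, with scaled log2 differences of -2.72 and -1.44, and by the deposited value table with -4.56 and -1.37, which makes 7 members measured at both stages under either.

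**Figure D1:**
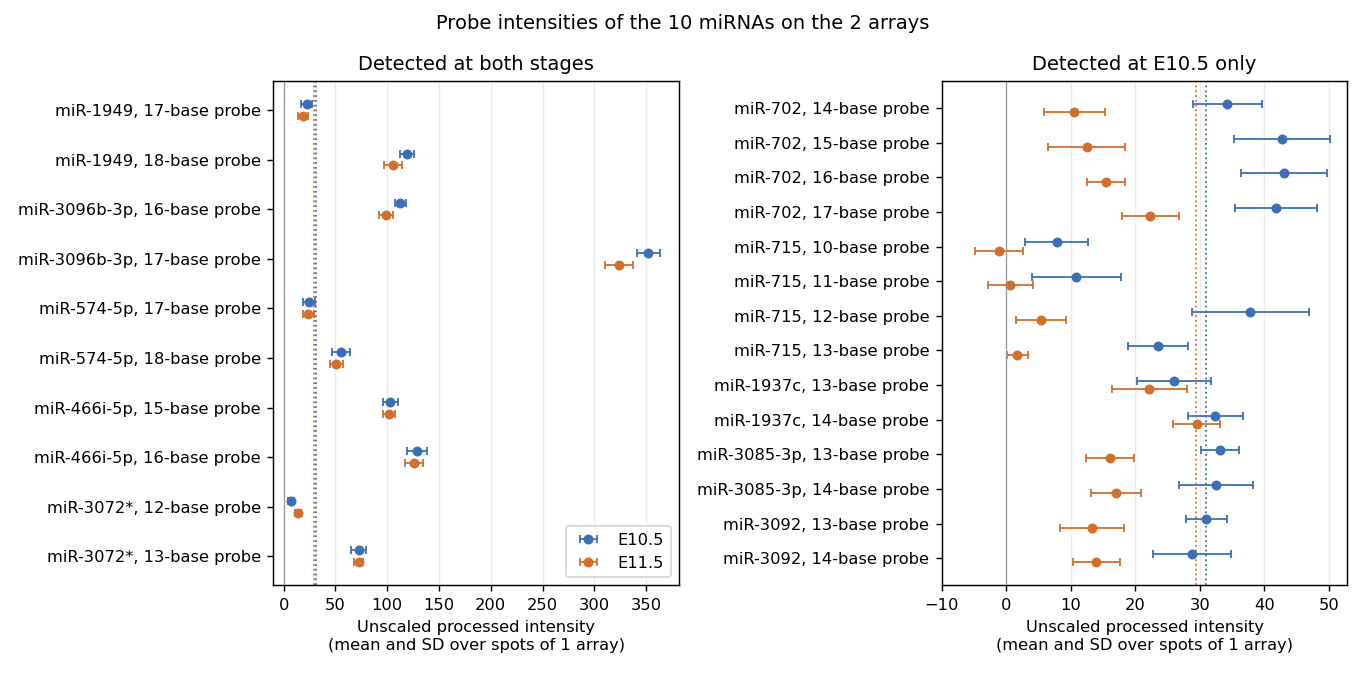
Unscaled processed intensity (x axis, mean with SD over the spots of 1 array) of each of the 24 member probes (y axis) at E10.5 (blue) and E11.5 (orange), with dotted lines at each array's dimmest detected probe (30.9 and 29.5). Members detected at both stages (left) have close values on the 2 arrays, and in those detected at E10.5 only (right) the values of miR-702, miR-715, miR-3085-3p and miR-3092 lie apart.

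Each member had 2 probes, or 4 for miR-702 and miR-715, on 20 or 10 spots per probe. None of the 400 member spots per array was saturated, and outlier flags removed 19 of them on the earlier array and 20 on the later one.

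Among the members measured at both stages, miR-3096b-3p had the brightest probe. The 17-base probe of mmu-miR-3096b-3p gave 352.2 ± 11.4 (SD, 20 spots) at E10.5 and 323.7 ± 13.7 (19 spots) at E11.5, and its 16-base probe gave 112.8 ± 5.72 and 98.7 ± 7.01. E11.5 was slightly dimmer on both probes, and the spots overlapped between arrays, from 331 to 375 against 301 to 347 for the longer probe. The scaled log2 difference was -1.47 ± 0.017 (SE over spots), and the unscaled one -0.16.

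The longer probe of mmu-miR-1949 gave 118.8 ± 6.89 at E10.5 and 105.9 ± 8.81 at E11.5 (19 spots each). The probe 1 base shorter gave 22.3 ± 5.21 and 18.9 ± 4.68 and stayed below detection on both arrays. The call thus rests on the longer probe, and both were slightly dimmer at E11.5 with overlapping spots. The scaled difference of miR-1949 was -1.48 ± 0.034, the largest of the 5.

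The members with a GU repeat were close to level between the arrays before scaling. On its 16-base probe mmu-miR-466i-5p gave 128.8 ± 9.78 at E10.5 against 125.5 ± 8.74 at E11.5 (20 spots each). Its 15-base probe gave 103.1 ± 7.03 against 101.7 ± 6.21. The probes differed from each other by little, 1.25-fold on the earlier and 1.23-fold on the later array, and the spots of both overlapped between stages. Scaled, miR-466i-5p differed by -1.34 ± 0.022.

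mmu-miR-574-5p, which also carries a GU repeat, gave 55.1 ± 8.55 (20 spots) at E10.5 and 50.9 ± 6.20 (19 spots) at E11.5 on its 18-base probe. The 17-base probe gave 24.8 ± 5.79 and 23.8 ± 5.32, with 1 and 2 of its 20 spots well above background. The scaled difference, -1.43 ± 0.064, has the widest SE over spots of the 5.

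mmu-miR-3072* comes from the Dlk1-Dio3 region, where it lies next to Mir410 in the gene table. Its 13-base probe gave 72.4 ± 7.28 (20 spots) at E10.5 and 72.3 ± 4.75 (18 spots) at E11.5, which is 99.9% of the earlier value. The 12-base probe, not well above background on either array, gave 7.32 ± 3.12 and 13.6 ± 2.85, and this is the only member probe of the 24 that was brighter at E11.5. The scaled difference rests on the 13-base probe and was -1.32 ± 0.039.

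All 5 were thus at least 2-fold lower at E11.5 on the scaled values, by which they were chosen, against 19 of all 137 measured miRNAs (13.9%). The median scaled difference was -1.43 for the 5 and -0.07 over all 137. Unscaled, all 5 were dimmer at E11.5, from -0.0014 to -0.17 on the log2 scale, against 13 of 137 miRNAs (9.49%). For miR-3072* this was a level value, 72.4 at E10.5 and 72.3 at E11.5. The files' total gene signal was lower at E11.5 for 9 of the 10 members, which describes their choice. The share over all miRNAs was not counted for this signal. For miR-3072* that signal was higher, 24.3 at E11.5 against 22.5 at E10.5. Unscaled, none of the 137 miRNAs, the 5 members among them, was 2-fold lower (0%). The 2-fold size therefore rests on the scaling, with a median of -0.11 for the 5 without it and -0.60 with scaling to 20 control probes. The log2 ratio of these controls, E11.5 over E10.5, had a median of 0.49 and ran from 0.26 to 0.90. Under each of the 14 processing alternatives tried, each of the 5 was below the median of all measured miRNAs, which describes their choice. With the 75th percentile of all probes, median scaling, no scaling and control probes, all miRNAs shift by the same amount. The distance of the members to that median was therefore fixed under these alternatives.

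**Figure D2:**
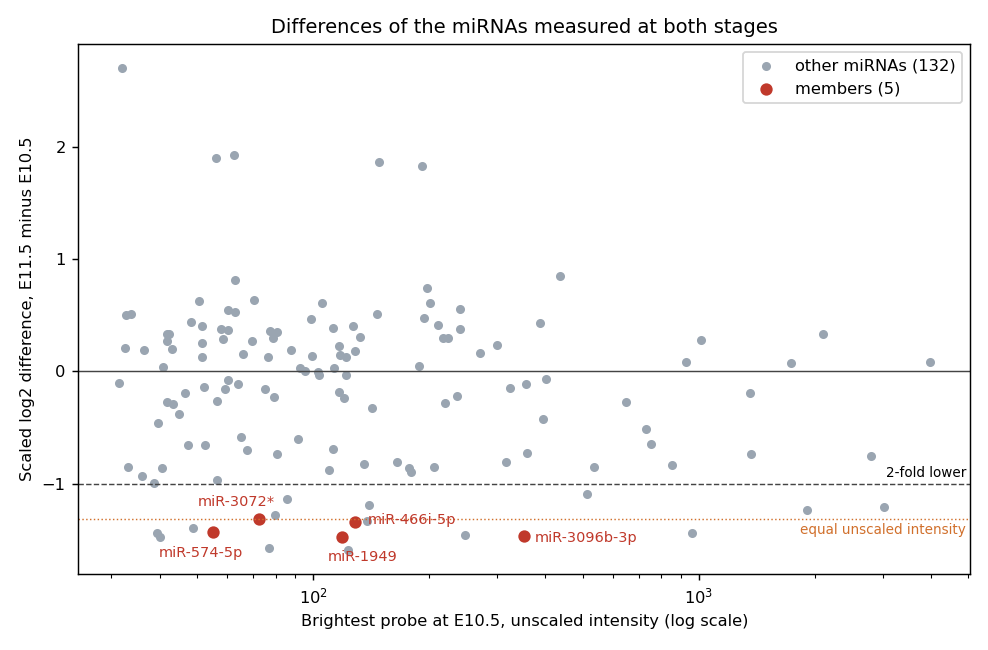
Scaled log2 difference, E11.5 minus E10.5 (y axis), against the unscaled intensity of the brightest probe at E10.5 (x axis, log scale) for the 137 miRNAs measured at both stages. The 5 members (red) lie between -1.48 and -1.32, on or just below the dotted line where unscaled intensity is equal on the 2 arrays, while the other 132 (grey) have a median of -0.02.

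Other miRNAs of like brightness had other differences on this plot. Between the members' lowest and highest E10.5 intensities (55.1 to 352) lay 78 other miRNAs, with a median scaled difference of 0.09 and a range from -1.59 to 1.93. Of these, 7 were at least 2-fold lower. The 3 miRNAs whose scaled difference was nearest to the members' median over these 2 arrays were miR-17 (-1.44), miR-20b (-1.44) and miR-200b (-1.46). The threshold itself fell between miR-18a (-1.095), miR-96 (-1.14) and miR-1224 (-1.19) just inside and miR-677* (-0.996), miR-3096-5p (-0.96) and miR-1944 (-0.93) just outside.

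Among the members detected at E10.5 only, mmu-miR-702 was detected there by all 4 of its probes and by 0 of them at E11.5. At E10.5 they gave 34.3 ± 5.33, 42.7 ± 7.42, 43.1 ± 6.63 and 41.8 ± 6.33 (10 spots each) from the shortest to the longest. At E11.5 they gave 10.6 ± 4.66, 12.5 ± 5.96, 15.5 ± 2.92 (9 spots) and 22.3 ± 4.39. The spots of all 4 probes were separate between the arrays, and on the longest probe 1 spot at E11.5 was still well above background.

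mmu-miR-715 was detected by 1 of its 4 probes. The 12-base probe gave 37.9 ± 9.12 at E10.5 and 5.403 ± 3.93 at E11.5 (10 spots each), the latter close to the mean of the negative controls, and the spots did not overlap. The 13-base probe followed it, at 23.5 ± 4.67 and 1.69 ± 1.64 (10 and 8 spots), without being well above background, and its spots did not overlap either. The 10-base and 11-base probes gave 7.79 ± 4.89 and 10.9 ± 6.96 at E10.5 against -1.14 ± 3.71 and 0.625 ± 3.55 at E11.5, and on these the spots overlapped.

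The probes of mmu-miR-3085-3p, of 13 and 14 bases, gave 33.1 ± 2.92 (17 spots) and 32.5 ± 5.76 (20 spots) at E10.5 and 16.1 ± 3.72 and 17.0 ± 3.94 (19 spots each) at E11.5. Those of mmu-miR-3092, of the same lengths, gave 31.0 ± 3.16 (16 spots) and 28.8 ± 6.10 (20 spots) against 13.3 ± 4.94 and 14.0 ± 3.70. At E11.5 none of the spots of these probes was well above background. miR-3092 was the nearest to the detection limit of all 144 miRNAs detected at E10.5, and its 13-base probe was detected through 8 of 16 spots.

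mmu-miR-1937c differed from these. Its 14-base probe gave 32.4 ± 4.28 at E10.5 and 29.6 ± 3.64 at E11.5 (18 spots each), with 11 and 6 spots well above background. The 13-base probe gave 26.0 ± 5.75 (18 spots) and 22.2 ± 5.78 (20 spots). The spots of both overlapped, so its place among miRNAs detected at E10.5 only rests on a small shift across the detection limit.

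Of the 206 miRNAs detected at either stage, 7 (3.4%) were detected at E10.5 only, and the 5 members are among these 7 by choice. Because a dim signal at E11.5 is only a bound, the fold was taken against the higher of the dimmest detected probe and the miRNA's own probe there. On scaled values the bound for miR-702 was at least 3.40-fold in favour of E10.5. It was at least 3.20-fold for miR-715, 2.77-fold for miR-3085-3p, 2.73-fold for miR-1937c and 2.62-fold for miR-3092. A probe just detected at E10.5 and just missed at E11.5 gets 2.61-fold from the scaling and the arrays' detection limits together, and the last 3 bounds lie close to that value. Without scaling the bounds were 1.37, 1.29, 1.11, 1.098 and 1.05 in the same order.

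The unscaled spots give a view that no scaling enters. Of 359 probes detected at either stage, 81.9% had spots that did not overlap between the arrays, and 12 probes (3.34%) had every E11.5 spot below every E10.5 spot. Those 12 probes belonged to 6 miRNAs: 4 to miR-702, 1 each to miR-715, miR-3085-3p and miR-3092, 4 to the viral mghv-miR-M1-2-3p and 1 to miR-129-1-3p. All 6 were detected at E10.5 only, so the direction of their probes largely follows from the detection call. Of the 16 member probes detected at E10.5, 7 did not overlap, all in these 4 members. The 14-base probe of miR-3085-3p overlapped, as did the 8 detected probes of the 5 measured members and miR-1937c.

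The probe sequences differ along the division by detection call. That division puts miR-1937c with miR-702, miR-715, miR-3085-3p and miR-3092, although its spots overlapped. All 5 members detected at E10.5 only have a run of at least 4 guanines in a probe (GGGG, searched on the probe strand alone), and 0 of the 5 measured at both stages do. On the whole array 39 of 1080 miRNAs (3.61%) carry such a run, as do 6 of the 137 measured at both stages and 6 of the 62 detected at E11.5 only. The other 2 miRNAs detected at E10.5 only, miR-129-1-3p and mghv-miR-M1-2-3p, carry it too, so that it was present in 7 of 7. mghv-miR-M1-2-3p is a gammaherpesvirus miRNA whose brightest probe gave 59.3 at E10.5 and 21.2 at E11.5. The division depends on the detection rule, since the carriers miR-702 and miR-1937c were detected at both stages by the gene detection flag of the files. This feature was examined after the values were seen, and no test was made of it.

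Carriers of a guanine run were found on both sides. Of 19 carriers detected at either stage, the 7 detected at E10.5 only were dimmer at E11.5 and the other 12 were brighter before scaling. For the 7, and for the 6 detected at E11.5 only, the direction largely follows from the detection call. The 6 measured at both stages were brighter at E11.5, and 13 of all 137 measured miRNAs (9.49%) were dimmer there. Among the 12 were miR-133b (7.96 at E10.5, 219.8 at E11.5) and miR-345-5p (103.3 at the earlier stage, 255.5 at the later). The 6 carriers measured at both stages had a median scaled difference of -0.31, from -0.88 for miR-483* to 0.43 for miR-1937b.

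**Figure D3:**
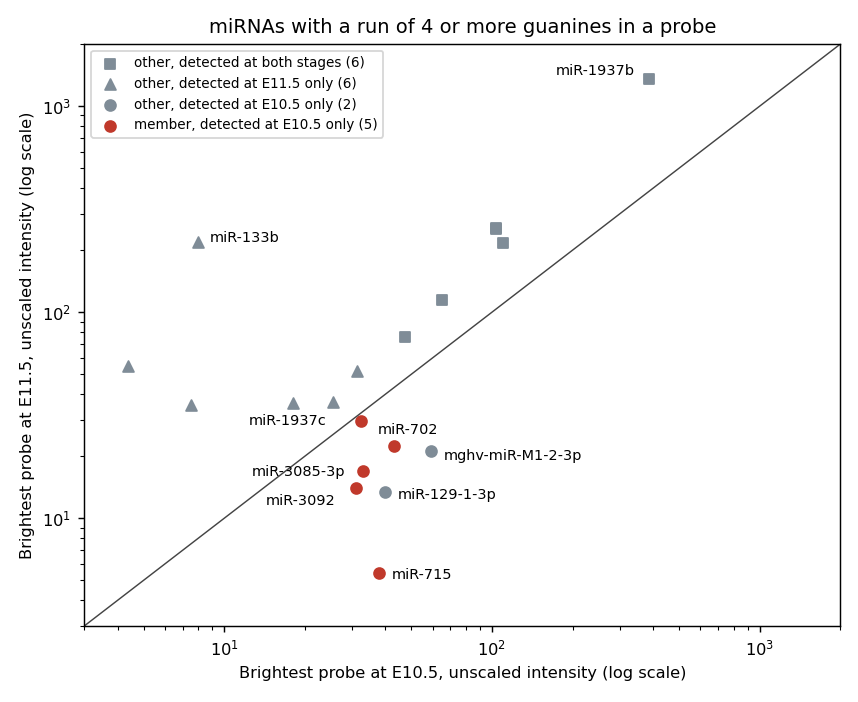
Unscaled intensity of each miRNA's brightest probe at E10.5 (x axis) and E11.5 (y axis), both on log scales, for the 19 detected miRNAs with a run of at least 4 guanines in a probe. The diagonal marks equal intensity: the 5 members (red) and 2 others detected at E10.5 only lie below it, and the 12 others lie above it.

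miR-1937c has a namesake, miR-1937b, with a closely similar probe. The longest probes of both begin with the same letters, with the guanine run in capitals.

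miR-1937b probe: tGGGGGctcgtcc

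miR-1937c probe: tGGGGGctcttccg

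Over the 13 bases that both have, counted from the 5′ end of the probes, there is 1 difference, G10T, with the miR-1937b base first. The miR-1937b probe gave 386.8 ± 14.6 (20 spots) at E10.5 and 1359 ± 48.4 (18 spots) at E11.5, a 3.51-fold ratio, and its 12-base probe gave a 3.19-fold ratio. miR-1937b was thus brighter at E11.5, with a scaled difference of 0.43 ± 0.019, while the miR-1937c probe described above was not. The levels of these miRNAs cannot be ranked from different probes. The miR-1937b probes map to 6 sites each in the array annotation and those of miR-1937c to 1. Whether either probe also reads other RNAs was not tested.

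The other arms and lettered paralogs of the members were mostly below detection on these arrays. Of 27 such names, 25 were detected at neither stage and 2, miR-1937b and miR-3096-5p, at both. miR-3096-5p gave 56.4 ± 4.54 at E10.5 and 71.9 ± 7.04 at E11.5 (20 spots each), brighter before scaling, with a scaled difference of -0.96 ± 0.041. The opposite arms of miR-574-5p, miR-3072*, miR-3085-3p and miR-3092 were below detection at both stages. The brightest probe of miR-574-3p, for example, gave -2.20 ± 4.77 at E10.5 and 2.31 ± 5.80 at E11.5 (10 spots each), and that of miR-3072 gave 0.866 ± 4.497 and 4.29 ± 3.49.

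miR-466i-5p was the only miR-466 name detected on these arrays. None of the 21 other miR-466 names was detected, and their brightest probes reached 17.5 at E10.5 and 27.4 at E11.5, both those of miR-466b-3p. At least 4 GU units in a row, counted as TG or GT on the mature sequence or, where none was matched, on the probe's target, occur in 13 miRNAs of the array (1.20%). Of these 13, the members miR-466i-5p (8 units) and miR-574-5p (6 units) were measured at both stages, and the other 11 were detected at neither. The brightest of the 11 at E10.5 was miR-1187, with 25.9 there against 21.7 at E11.5. The brightest at E11.5 was miR-672, with 26.3 there against 0.660 at E10.5.

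GC content and length of the probes also differed between the 2 kinds of member. Over the probes detected at E10.5, the members detected at E10.5 only had a median GC content of 70.3% (61.5% to 83.3%) and a median length of 13.5 bases. The 5 measured at both stages had 51.5% (44.4% to 76.9%) and 16.5 bases, and the 132 other miRNAs measured at both stages had 50% and 17.5 bases. The GC-rich end is held by miR-715 among the members detected at E10.5 only and by miR-3072* among those measured at both stages. Among the 34 other miRNAs measured at both stages with a probe GC content of 56.25% or more, the median scaled difference was -0.25, and 4 were at least 2-fold lower (11.8%). The 2 miRNAs detected at E10.5 only that are no members, miR-129-1-3p and mghv-miR-M1-2-3p, had GC contents of 42.1% and 64.3% and a median length of 18.25 bases. The part of GC content, probe length and closeness to background in the values was not tested.

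The name of the group speaks of poor conservation and repeats, and the data bear on this only in part. Conservation was not measured. A GU repeat was present in 2 of 10. A miRBase number of 700 or above, which records late registration and nothing more, was carried by 8 of 10, against 326 of 1080 on the array. Among the 8 other miRNAs numbered so and measured at both stages the median scaled difference was -0.83, with 6 below 0 and 1 at least 2-fold lower, beside -0.02 over the 132 other miRNAs measured at both stages. With no scaling that median was 0.49.

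**Figure D4:**
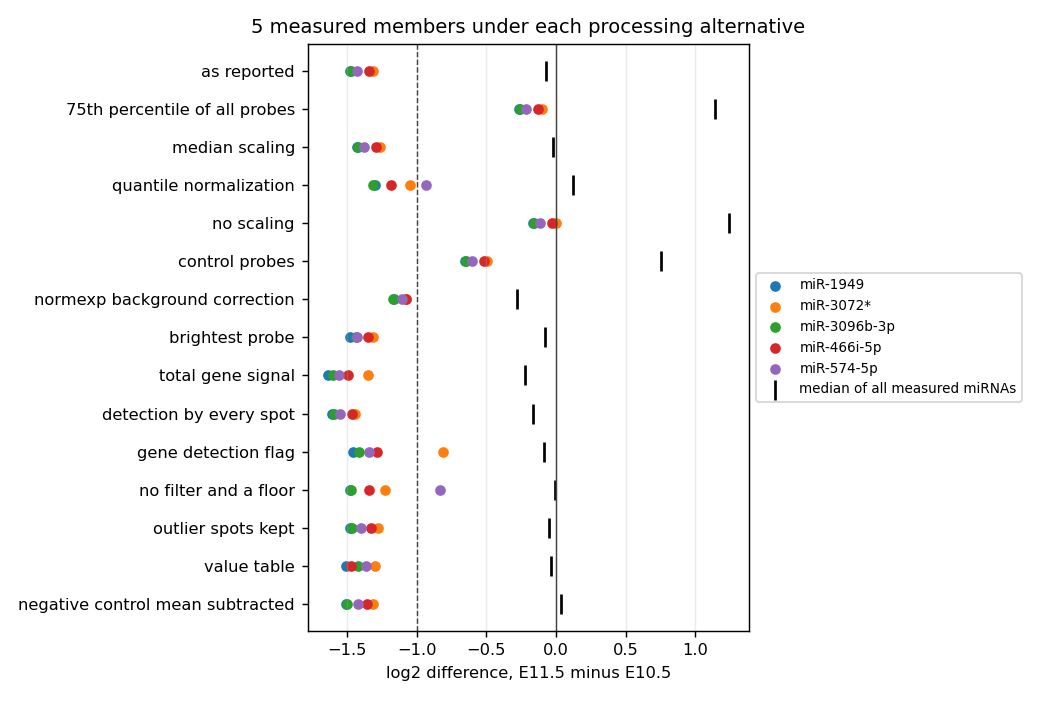
log2 difference, E11.5 minus E10.5 (x axis), of the 5 members measured at both stages (coloured points) under the reported processing and 14 alternatives (y axis), with the median of all measured miRNAs as a black bar. The points lie left of the bar in each line, which is fixed by the reported values where an alternative only shifts all miRNAs alike. All 5 lie right of the dashed 2-fold line with no scaling, the 75th percentile of all probes and control probes, as does 1 of them with quantile normalization, the gene detection flag and the floor.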

How the data were processed

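The deposited scanner files hold 1 array per stage, with an intensity for each spot from which the authors' software had taken the background and a spatial trend, per the file headers (Feature Extraction 10.7.1.1, design 031184, mm9; the submitters' processing notes name 9.5.1.1), and not normalized between arrays. The deposited value table holds intensity per miRNA on a linear scale, with 0.1 as its lowest value and as the median of both columns, which also share their highest value, and how the authors normalized it is not given in the sources used here. The flags for outliers, detection and saturation are those of the deposited files.

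Outlier spots (2058 and 2118 of 43200) were left out, spots were averaged per probe, and the scaling factor of an array was the 75th percentile of the 218 probes that both arrays detected (193.7 and 481.7). A miRNA's value is the mean log2 difference over its probes detected on both arrays. Counts used a 2-fold threshold. Detection was taken from the spots, with the files' gene detection flag among the alternatives. With 1 array per stage no test was possible, and the number of arrays limits the precision. Members, lists and rules were chosen with earlier results of these data known. The named miRNAs are all members, their other arms and lettered paralogs (each where detected), the 3 nearest to the members' median and the 3 on either side of the threshold. Others were named after their values were seen.

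Sequences are from RefSeq (GRCm38.p6, 834 of 1023 mouse miRNAs matched by number and sequence) or the Sequence column of the files. Mapped spans in the files are 1 base shorter than the probe for 2299 probes and equal for 313, and are printed as deposited. On simulated arrays made from E10.5 probe means, 15 of 15 miRNAs set 3-fold lower, 15 of 15 set 3-fold higher, 0 of 30 changed by 1.5-fold and 0 of 84 unchanged were called 2-fold different, which checks the steps and not the noise between arrays. Tools were limma 3.58.1 in R 4.3.3 (normexp, offset 50), and pandas 2.3.3 and numpy 2.4.6 in Python 3.11.15.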

Additional observations from a re-analysis of the deposited data

How the results depend on the processing

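The direction of the median of the measured members did not change under any of the 14 alternatives, but its size did. It was -0.11 without between-array scaling, -0.21 where the 75th percentile was taken over all probes, -0.60 after scaling to control probes, -1.38 with median scaling, -1.18 with quantile normalization, -1.11 with normexp background correction, -1.55 where detection required every spot and -1.56 with the total gene signal. With the first 3, 0 members were at least 2-fold lower. With no filter and a floor all 10 members had a value, with a median of -0.61. In this setting miR-574-5p was at -0.83, and the 5 members detected at E10.5 only lay between -0.0047 and -0.38, since their E11.5 values sit at the floor. Either the value table or the gene detection flag makes miR-702 and miR-1937c measured at both stages, 7 members in all. With that flag miR-3072* was at -0.81, where its dim probe enters. Subtracting the mean of the negative controls, an alternative added after the data were seen, gave -1.42. The 5 members detected at E10.5 only lie near the limit of detection, so their folds are bounds. No paired analysis was possible because each stage has 1 array.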

Other observations

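In the deposited value table, whose normalization is not stated, the members were lower at E11.5 throughout, which describes their choice. Of the 169 miRNAs measured at both stages there, 28 (16.6%) were at least 2-fold lower, among them the 7 members so measured. The value of miR-3096b-3p was 227.8 at E10.5 and 85.0 at E11.5, that of miR-1949 70.7 and 24.8, and that of miR-466i-5p 123.0 and 44.2. miR-702 was at 38.5 and 1.63 in that table, while none of its 4 probes was detected at E11.5 by spots. miR-715, miR-3085-3p and miR-3092 stood at its lowest value of 0.1 at E11.5.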
